A study of Mus musculus with 6 samples.

Results

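Transcripts of the MHC class II pathway were followed in mouse fetal liver stem cells of the blood (HSCs), either with a Uqcrfs1 knockout (KO) or wild type for that gene (WT). Uqcrfs1 encodes RISP, the Rieske iron-sulfur protein of respiratory complex III, which passes electrons on from ubiquinol. The labels call the groups RISP knockout and RISP wild type, and each had 3 total RNA libraries from C57BL/6 mice. The labels used here give no age, no sex and no driver of the deletion. They do not say whether each library stands for its own embryo. The p-values therefore set group differences only against the spread between these libraries, and some of that spread may be technical. The 8 genes described were picked by symbol from the 23951 rows of the read count table: Cd74, H2-Aa, H2-Ab1, H2-Eb1, H2-DMa, H2-DMb1, H2-DMb2 and Ciita. They were picked with their KO and WT values known, so those values are a description and carry no test. All 8 were in the table, and 6 had enough reads for a fitted fold change.

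Class II molecules are heterodimers of an alpha and a beta chain that show peptides from the endosome to CD4+ T cells. They are a hallmark of dendritic cells, B cells and activated macrophages, and are found on other cells at lower levels. In the endoplasmic reticulum the dimer binds the invariant chain, the product of Cd74, which fills the groove and steers it to the endosome. There the invariant chain is cut down and the DM heterodimer exchanges its last fragment for a peptide. CIITA is a coactivator that binds no DNA itself: it docks on RFX, CREB and NF-Y factors that sit on a conserved run of promoter elements, the X and Y boxes, and is the limiting switch of the whole set. C57BL/6 mice carry a defective E alpha gene, so they have the H2-Eb1 transcript but no surface I-E molecule.

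The promoter elements are shown because CIITA acts through them. RefSeq windows on build GRCm38.p6, each 250 bases before to 50 bases after a start, were found for 5 of the 8 genes, with 2 windows for H2-DMa. They were searched on both strands for ATTGG, the core of the Y box, and for GNAAC, the core of the X box, followed after 20 to 30 bases by ATTGG. The 2 motifs overlap, since every such pair holds an ATTGG, and the spacing was set with these windows in view. Stretches of 60 bases that hold the ATTGG follow for 4 of the genes and for H2-Oa and H2-Ob, class II genes outside the set, with each GNAAC that belongs to a pair and each ATTGG in capitals.
H2-Aa, chr17:34287862-34287921, minus strand: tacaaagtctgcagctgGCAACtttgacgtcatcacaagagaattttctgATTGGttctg
H2-Eb1, chr17:34305758-34305817, plus strand: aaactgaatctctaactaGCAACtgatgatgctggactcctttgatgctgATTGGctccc
H2-DMb1, chr17:34153080-34153139, plus strand: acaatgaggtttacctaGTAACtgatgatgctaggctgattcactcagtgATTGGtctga
H2-DMb2, chr17:34145109-34145168, plus strand: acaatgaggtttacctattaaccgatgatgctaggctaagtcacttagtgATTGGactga
H2-Oa, chr17:34092286-34092345, plus strand: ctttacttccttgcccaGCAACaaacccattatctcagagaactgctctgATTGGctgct
H2-Ob, chr17:34238798-34238857, plus strand: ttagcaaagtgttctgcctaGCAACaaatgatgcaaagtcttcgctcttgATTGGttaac

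The pair was found in 3 of the 5 genes with a window, H2-Aa, H2-Eb1 and H2-DMb1, and also in H2-Oa and H2-Ob. The gap between the 2 cores was 28 bases in H2-Aa, H2-DMb1 and H2-Oa, 27 bases in H2-Eb1 and 25 bases in H2-Ob. The ATTGG of the pair began 48 bases before the annotated start in H2-Aa and 59 bases before it in H2-Eb1. H2-DMb2 held an ATTGG, 90 bases before its start, but no GNAAC at that spacing, and neither H2-DMa window held the pair. Among all 32851 mouse promoter windows, 1.91% held the pair and 37.4% held an ATTGG on either strand. A match describes letters in a window and not a site in use.

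The labels were first checked by the targeted gene. Uqcrfs1 had 60, 51 and 39 counts in KO replicates 1 to 3, against 771, 1320 and 791 counts in WT replicates 1 to 3, so all 6 libraries matched their labels. Total counts were 12020128 to 14590844 in KO and 10191354 to 13189329 in WT. Levels are in CPM, the counts of a gene scaled to library size, with library sizes adjusted by edgeR's TMM factors, and 3 counts, the limit that a count of 0 allows, equal 0.200 to 0.237 CPM in KO and 0.231 to 0.301 CPM in WT. The limit covers counting error only, since PCR reads without molecular identifiers are not independent molecules. The stem cell markers listed for the check (among them Kit, Hlf, Cd34 and Procr) all passed the filter on low counts and summed to 1979 to 2135 CPM in KO and 2326 to 2784 CPM in WT.

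Class II transcripts were present in these stem cell libraries, at levels that differed widely between the genes, and their sum was lower in KO. The 8 genes together had 367, 505 and 386 counts in KO replicates 1 to 3, against 1535, 1248 and 878 counts in WT replicates 1 to 3. In 6 of the 8 genes every KO library lay below every WT library, and in H2-DMb1 and H2-DMb2 the groups overlapped. Among all 12204 genes that passed the filter, 14.5% had every KO library below every WT library, and since the genes were picked on this contrast nothing is read from the comparison of these shares. The 6 fitted genes all had a log2 fold change of -1 or lower, as did 8.21% of the genes tested, and the same limit holds. All 8 marker lists of cell types, not only those of class II bearing cells, had a lower mean sum in KO too. The ratio of KO to WT ran from 0.166 for erythroid markers to 0.814 for stem cell markers, with further values given at the end. These are bulk libraries, in which fewer cells of a type and less RNA per cell cannot be told apart.

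Cd74, the invariant chain gene, had the highest mean WT level of the 8 genes per transcript length, in the authors' RPKM. It had 72, 121 and 80 counts in KO replicates 1 to 3, against 446, 467 and 209 counts in WT replicates 1 to 3. Every KO library was below every WT library, and WT replicate 3 lay well below the other WT libraries. Its level was 6.52 ± 1.44 CPM in KO and 34.8 ± 16.2 CPM in WT (SD, n = 3 each), a fitted log2 fold change of -2.41 with a standard error (SE) of 0.38. Leaving out single libraries moved this value between -2.75 and -2.19.

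H2-Aa and H2-Ab1 encode the alpha and beta chains of I-A, the class II molecule that C57BL/6 cells display. H2-Aa had 47, 33 and 10 counts in KO replicates 1 to 3, against 123, 220 and 74 counts in WT replicates 1 to 3. The lowest WT library, replicate 3, stood at 5.71 CPM and the highest KO library, replicate 1, at 3.39 CPM. H2-Aa averaged 2.12 ± 1.30 CPM in KO and 12.8 ± 7.40 CPM in WT (SD, n = 3 each), with a log2 fold change of -2.58 (SE 0.65) that ran from -3.08 to -2.08 when a library was left out. H2-Ab1 had 39, 90 and 62 counts in KO replicates 1 to 3, against 320, 179 and 118 counts in WT replicates 1 to 3. WT replicate 1 was the highest of the 6 libraries and KO replicate 1 the lowest, with no overlap between the groups. H2-Ab1 averaged 4.56 ± 1.61 CPM in KO and 19.3 ± 11.7 CPM in WT (SD, n = 3 each), a log2 fold change of -2.07 (SE 0.49) that was -1.49 without WT replicate 1.

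H2-Eb1 encodes the beta chain of I-E, and its KO libraries differed widely. It had 2, 39 and 8 counts in KO replicates 1 to 3, against 132, 60 and 98 counts in WT replicates 1 to 3. KO replicate 2 held most of the KO reads but still lay below WT replicate 2, the lowest WT library, at 2.60 CPM against 5.59 CPM. H2-Eb1 averaged 1.12 ± 1.30 CPM in KO and 8.79 ± 3.97 CPM in WT (SD, n = 3 each). The log2 fold change was -2.95 (SE 0.88), and it was -4.48 without KO replicate 2. Whether all 6 libraries carry the same H2 haplotype was not tested, and reads of these polymorphic genes from another haplotype may be counted less well. The partner chain of I-E, listed as H2-Ea-ps, had 0 counts in all 6 libraries, as did H2-Eb2.

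The DM genes load the peptide. H2-DMa, its alpha chain, had 193, 202 and 208 counts in KO replicates 1 to 3, against 473, 307 and 346 counts in WT replicates 1 to 3. The KO libraries lay close together and all below the WT libraries. Its level was 14.6 ± 1.59 CPM in KO and 34.2 ± 11.5 CPM in WT (SD, n = 3 each), with a log2 fold change of -1.23 (SE 0.30) that was -0.92 without WT replicate 1. KO kept 42.6% of the mean WT level of H2-DMa, against 18.8% for Cd74, 16.6% for H2-Aa, 23.7% for H2-Ab1 and 12.8% for H2-Eb1. H2-DMa overlaps the neighbouring Brd2 over 3122 bases in the RefSeq annotation, and the strand setting of the count is not stated in any source used here, so reads of that overlap may be counted for either gene.

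The DM beta chain genes were near the limit of detection. H2-DMb1 had 9, 0 and 8 counts in KO replicates 1 to 3, against 8, 2 and 12 counts in WT replicates 1 to 3. H2-DMb2 had 5, 15 and 7 counts in KO replicates 1 to 3, against 21, 3 and 0 counts in WT replicates 1 to 3. The groups overlapped in each gene, and a difference was not detectable at this depth. The 2 genes are tandem copies: the best aligned pair of their GENCODE transcripts shared 94.2% of 1246 aligned bases, with an identical run of 221 bases, so how the deposited counts split reads between them is uncertain.

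Ciita, the coactivator of the set, was rare in all libraries. It had 0, 5 and 3 counts in KO replicates 1 to 3, against 12, 10 and 21 counts in WT replicates 1 to 3. No KO library reached the lowest WT library, and WT replicate 3, with the lowest Cd74 and H2-Aa of the WT group, had the most Ciita. Ciita averaged 0.190 ± 0.171 CPM in KO, at or under the limit for a count of 0 in KO replicate 1, and 1.25 ± 0.347 CPM in WT (SD, n = 3 each). In the authors' RPKM, KO replicate 1 was instead the highest KO library for Ciita, at 0.056 RPKM. The fitted log2 fold change was -2.66 with an SE of 1.69, and it was -3.32 without KO replicate 2. Ciita passed the filter through its WT libraries alone, and H2-Eb1 did so with 1 KO library over the filter's floor.

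**Figure D1:**
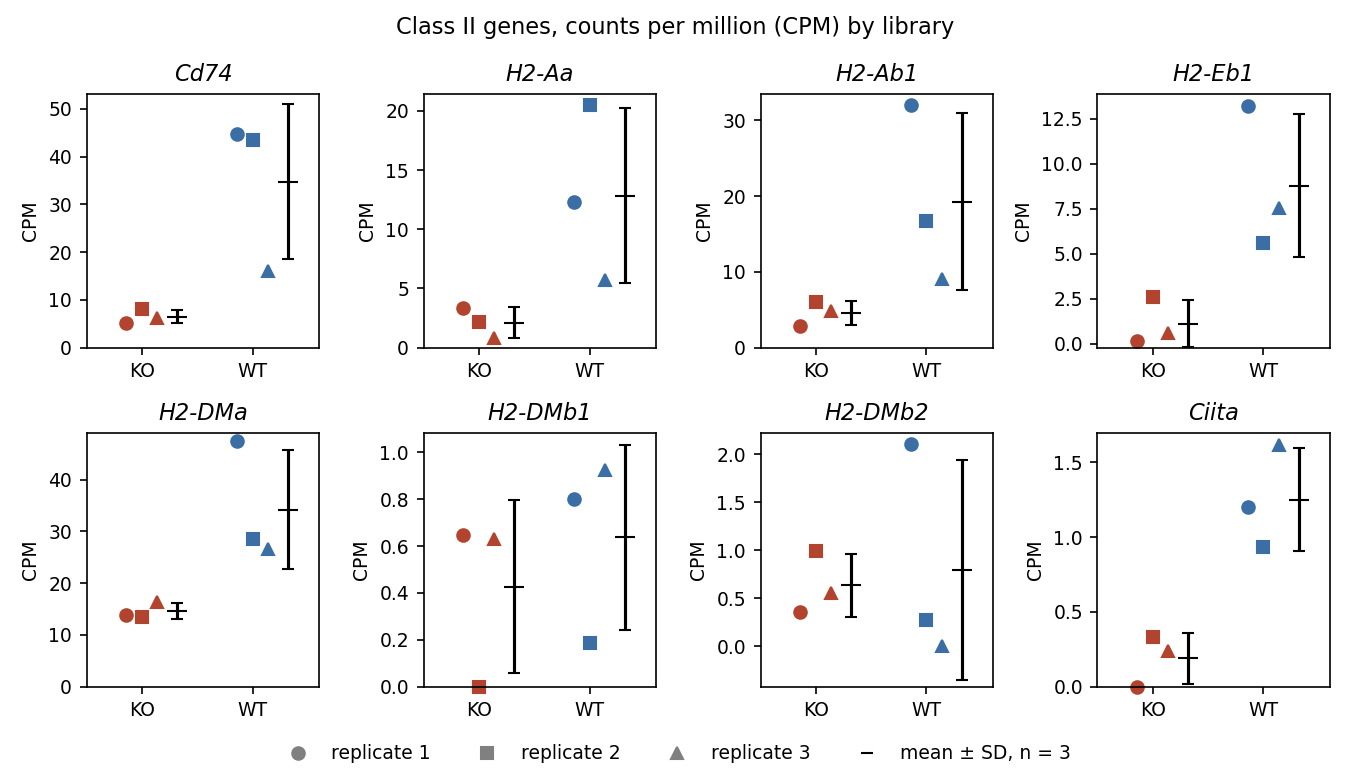
Level in CPM (vertical axis, a separate scale in each panel) of the 8 class II genes in the 3 KO libraries (red) and the 3 WT libraries (blue), with the marker shape giving the replicate number and black bars the mean ± SD. In Cd74, H2-Aa, H2-Ab1, H2-Eb1, H2-DMa and Ciita the KO points all sit below the WT points, and in H2-DMb1 and H2-DMb2 they overlap; an SD bar below 0 only reflects the spread.

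Levels between genes can be set side by side only per length, for which the authors' RPKM values (read counts scaled to gene length and library size) were used. In KO the order of the mean levels was H2-DMa at 6.49 ± 1.28 RPKM, Cd74 at 3.73 ± 0.713, H2-Ab1 at 3.10 ± 1.01, H2-Aa at 2.62 ± 1.58, H2-DMb2 at 0.901 ± 0.464, H2-Eb1 at 0.709 ± 0.865, H2-DMb1 at 0.317 ± 0.275 and Ciita at 0.0413 ± 0.0153 RPKM (SD, n = 3 each). In WT it was Cd74 at 19.7 ± 8.52 RPKM, H2-DMa at 15.5 ± 5.21, H2-Aa at 14.7 ± 8.89, H2-Ab1 at 12.1 ± 7.43, H2-Eb1 at 4.68 ± 2.08, H2-DMb2 at 1.11 ± 1.59, H2-DMb1 at 0.459 ± 0.281 and Ciita at 0.207 ± 0.0812 RPKM. The ranges of mean ± SD overlapped among the first 4 genes of the WT order, and among Cd74, H2-Ab1 and H2-Aa in KO, while the range of H2-DMa in KO lay above those of these 3. In WT replicate 3 H2-DMa, at 12.0 RPKM, was above Cd74, at 9.90 RPKM. Among the genes tested, the mean level of Cd74 was at the 25.8th percentile in KO and at the 68.8th in WT. The mean level of H2-DMa was at the 37.4th percentile in KO and at the 61.9th in WT.

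The makeup of the class II reads differed between libraries. H2-DMa held 52.6%, 40.0% and 53.9% of the summed class II CPM in KO replicates 1 to 3, against 30.8%, 24.6% and 39.4% in WT replicates 1 to 3. Cd74 held 19.6%, 24.0% and 20.7% in KO, against 29.1%, 37.4% and 23.8% in WT. The share of H2-DMa was higher in every KO library than in any WT library, by a narrow margin between KO replicate 2 and WT replicate 3. This is a description of genes picked on the contrast. The limit from the overlap of H2-DMa with Brd2 holds here too, and its part was not tested. The genes also did not peak in 1 library: within WT, H2-Ab1 and H2-DMa were highest in replicate 1, H2-Aa in replicate 2 and Ciita in replicate 3.

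Most of the class II genes lie in a row on chromosome 17, while Ciita lies on chromosome 16 and Cd74 on chromosome 18. In the RefSeq order H2-Ab1, H2-Aa and H2-Eb1 follow each other, and H2-DMa lies on the far side of Psmb9, Tap1, Psmb8, Tap2 and H2-Ob. These genes, named for their place, encode the class I peptide transporter, 2 proteasome subunits and the beta chain of DO, and had log2 fold changes of -0.29 (SE 0.40) for Psmb9, -0.46 (SE 0.32) for Tap1, -0.47 (SE 0.14) for Psmb8, 0.10 (SE 0.19) for Tap2 and -0.38 (SE 0.85) for H2-Ob. Brd2, a chromatin reader gene between H2-Oa and H2-DMa, rose to 278 ± 23.7 CPM in KO, against 167 ± 27.3 CPM in WT (SD, n = 3 each), with a log2 fold change of 0.74 (SE 0.13, edgeR adjusted p = 0.000702).

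Among 20 other genes of the same stretch that have no part in antigen presentation, 1 rose, Brd2, and 0 fell (edgeR, 2 of 20 at an unadjusted p under 0.05, and 1 called by DESeq2 and by limma-voom). The background over all 12204 genes tested was 6.41% higher and 4.99% lower in KO, with 25% at an unadjusted p under 0.05, and 14.7% of genes called in either direction by DESeq2 and 11.4% by limma-voom. The median log2 fold change of the 20 genes was 0.04, against -0.02 for all genes tested. Rps18, a ribosomal protein gene, stood at 1007 ± 93.7 CPM in KO and 1106 ± 110 CPM in WT. Wdr46 had a log2 fold change of 0.42 (SE 0.17) and Pbx2 of 0.28, and neither passed the threshold (edgeR, adjusted p of 0.119 for Wdr46).

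**Figure D2:**
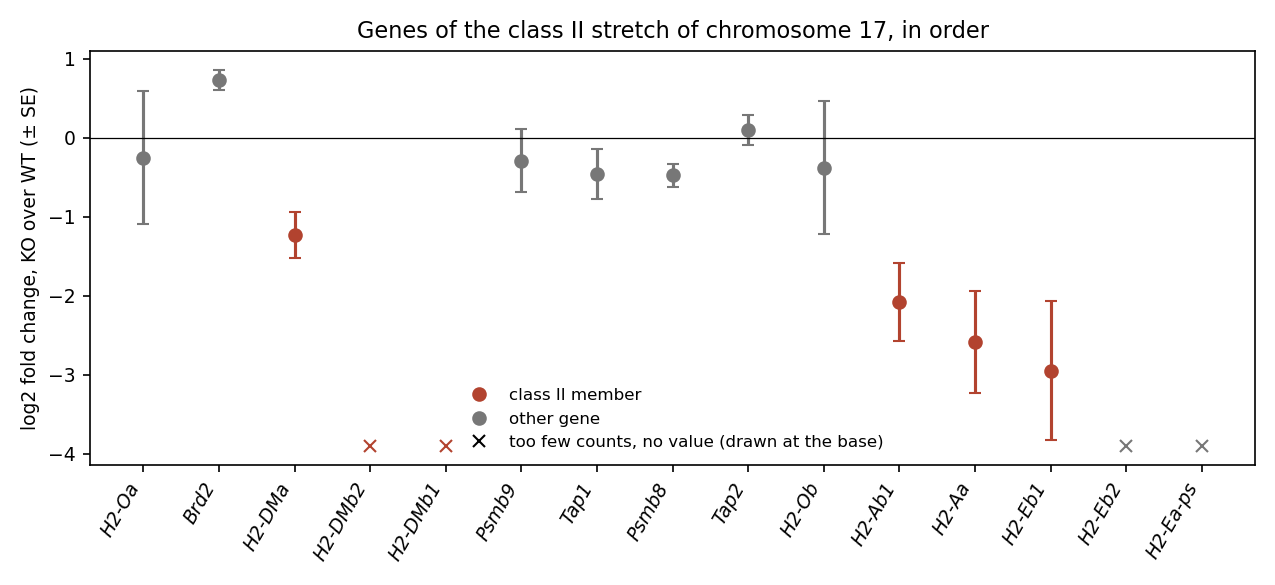
Fitted log2 fold change, KO over WT, with its SE (vertical axis) of the genes of the class II stretch of chromosome 17, in their order on the chromosome and not to scale (horizontal axis). H2-Ab1, H2-Aa and H2-Eb1 at -2.07, -2.58 and -2.95 stand next to each other, and Brd2 is above 0 at 0.74; crosses at the base mark genes with too few counts for a fitted value.

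The other class II genes were not among the 8 and are given with their tests. H2-Oa and H2-Ob encode DO, which holds DM in check in B cells and some dendritic cells. H2-Oa had 53, 49 and 42 counts in KO replicates 1 to 3, against 11, 69 and 63 counts in WT replicates 1 to 3. H2-Ob had 13, 71 and 52 counts in KO replicates 1 to 3, against 48, 40 and 54 counts in WT replicates 1 to 3. The groups overlapped in each, and neither passed the threshold (edgeR, adjusted p = 0.896 for H2-Oa and 0.840 for H2-Ob). Their log2 fold changes were -0.25 (SE 0.84) and -0.38 (SE 0.85), so these values are imprecise. H2-Oa and H2-Ob hold the same promoter pair as H2-Aa and H2-Eb1, as shown above.

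The factors on which CIITA docks were well covered. Of 7 genes (Rfx5, Rfxap, Rfxank, Nfya, Nfyb, Nfyc and Creb1), 0 passed the threshold (edgeR, also 0 at an unadjusted p under 0.05 and 0 by DESeq2 and limma-voom), with a median log2 fold change of 0.00. Nfya, an NF-Y subunit, stood at 207 ± 12.9 CPM in KO and 195 ± 2.58 CPM in WT (SD, n = 3 each). Creb1 stood at 139 ± 15.4 CPM in KO and 146 ± 16.9 CPM in WT, and Nfyb and Nfyc had log2 fold changes of -0.15 (SE 0.18) and 0.00 (SE 0.20). Rfx5, the DNA-binding subunit of RFX, named for its role after its values were seen, stood at 38.8 ± 7.38 CPM in KO and 35.3 ± 5.12 CPM in WT.

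Among 10 tested regulators of Ciita, 1 fell, Irf8, beside a background of 4.99% lower (edgeR; DESeq2 and limma-voom called 1 each). At an unadjusted p under 0.05 there were 5 of 10, and 25% of all genes tested. IRF8 is a transcription factor of dendritic cell and monocyte progenitors, and Irf8 is also on the list of dendritic cell markers. It had 286, 231 and 283 counts in KO replicates 1 to 3, against 500, 590 and 442 counts in WT replicates 1 to 3, and every KO library was below every WT library. Irf8 averaged 19.4 ± 3.62 CPM in KO and 46.4 ± 10.9 CPM in WT (SD, n = 3 each), a log2 fold change of -1.25 (SE 0.26, edgeR adjusted p = 0.00324), and passed the threshold whichever library was left out (highest adjusted p = 0.0264). Jak1, a kinase of the interferon gamma receptor, stood at 302 ± 18.1 CPM in KO and 372 ± 46.2 CPM in WT (SD, n = 3 each), and missed the threshold (edgeR, adjusted p = 0.0921). Jak2 stood at 111 ± 21.7 CPM in KO and 120 ± 26.9 CPM in WT. Irf4, a related factor singled out after its values were seen, had 17, 37 and 11 counts in KO replicates 1 to 3, against 77, 28 and 51 counts in WT replicates 1 to 3 (edgeR, adjusted p = 0.311).

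All 7 endosomal processing genes had a fitted value below 0, as did 52.0% of all genes tested, with a median log2 fold change of -1.43. Of the 7, 1 passed the threshold, Ifi30, beside a background of 4.99% lower (edgeR). DESeq2 called 2 of the 7 and limma-voom 0, and 5 of 7 had an unadjusted p under 0.05 in edgeR, against 25% of all genes tested. Ifi30, a thiol reductase that opens disulfide bonds of antigens, had 87, 35 and 121 counts in KO replicates 1 to 3, against 257, 123 and 706 counts in WT replicates 1 to 3. Its log2 fold change was -2.34 (SE 0.64, edgeR adjusted p = 0.0450), and the call was lost without KO replicate 1, KO replicate 2, WT replicate 1 or WT replicate 3 (edgeR, highest adjusted p = 0.188, without KO replicate 1). Ctss, the protease that trims the invariant chain, named for its role after its values were seen, had 65, 62 and 259 counts in KO, against 742, 247 and 944 counts in WT (edgeR, adjusted p = 0.178). Ctsb and Ctsd, lysosomal cathepsins, stood at 99.1 ± 11.0 and 98.3 ± 12.6 CPM in KO, against 267 ± 200 and 179 ± 79.5 CPM in WT, where WT replicate 3 was highest in each. That library was also highest for Ifi30, and held the highest sum of macrophage markers, 1229 CPM, where the other 5 libraries had 92.8 to 374 CPM. The part of macrophage RNA in these values was not tested. Sppl2a, which cleaves the stub of the invariant chain in the membrane, had a log2 fold change of -0.48 (SE 0.17, edgeR adjusted p = 0.0811).

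Genes of class II turnover and costimulation were mostly too rare to fit. March1, the ligase that marks class II for breakdown, had 9, 0 and 0 counts in KO replicates 1 to 3, against 94, 6 and 57 counts in WT replicates 1 to 3. Cd83, which opposes that ligase, had 0, 3 and 0 counts in KO, against 3, 10 and 79 counts in WT. March8 and Cd86 were tested and 0 of these 2 passed (edgeR, 1 at an unadjusted p under 0.05, and 0 by DESeq2 and limma-voom). Over all 28 tested genes of the class II pathway outside the 8, 0 rose and 2 fell, which is beside a background of 4.99% lower. Their median log2 fold change was -0.37, against -0.02 for all genes tested. The count of 2 was 1 without KO replicate 1 or KO replicate 2, and 5 without WT replicate 2.

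The class I pathway was compared as the other arm of antigen presentation. Of 15 genes, 5 fell and 0 rose, beside the same background of 4.99% lower and 6.41% higher, with a median log2 fold change of -0.31. B2m, the light chain of class I, had a level of 358 ± 52.1 CPM in KO and 648 ± 150 CPM in WT (SD, n = 3 each), a log2 fold change of -0.86 (SE 0.16, edgeR adjusted p = 0.00327). Calr, a chaperone of the loading complex and of other glycoproteins, fell by 0.60 on the log2 scale (SE 0.12, edgeR adjusted p = 0.00324). Psmb8 fell by 0.47, Erap1, the peptide-trimming enzyme of the endoplasmic reticulum, by 0.48, and Tapbp, the tapasin gene, named after its values were seen, by 0.57. B2m and Calr passed whichever library was left out. The Psmb8 call was lost without any 1 of the libraries except WT replicate 3 (edgeR, highest adjusted p = 0.133). The Erap1 call was lost without KO replicate 2, KO replicate 3, WT replicate 1 or WT replicate 2 (highest adjusted p = 0.184), and the Tapbp call without KO replicate 1, KO replicate 3 or WT replicate 2 (highest adjusted p = 0.205). The count of 5 was 2 without KO replicate 3 or WT replicate 2, and 3 without KO replicate 1, KO replicate 2 or WT replicate 1. The heavy chains H2-K1 and H2-D1, named after their values were seen, stood at 241 ± 26.0 and 58.6 ± 21.3 CPM in KO, against 261 ± 75.0 and 70.6 ± 12.7 CPM in WT, and are members of a family of similar copies whose reads may be split.

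**Figure D3:**
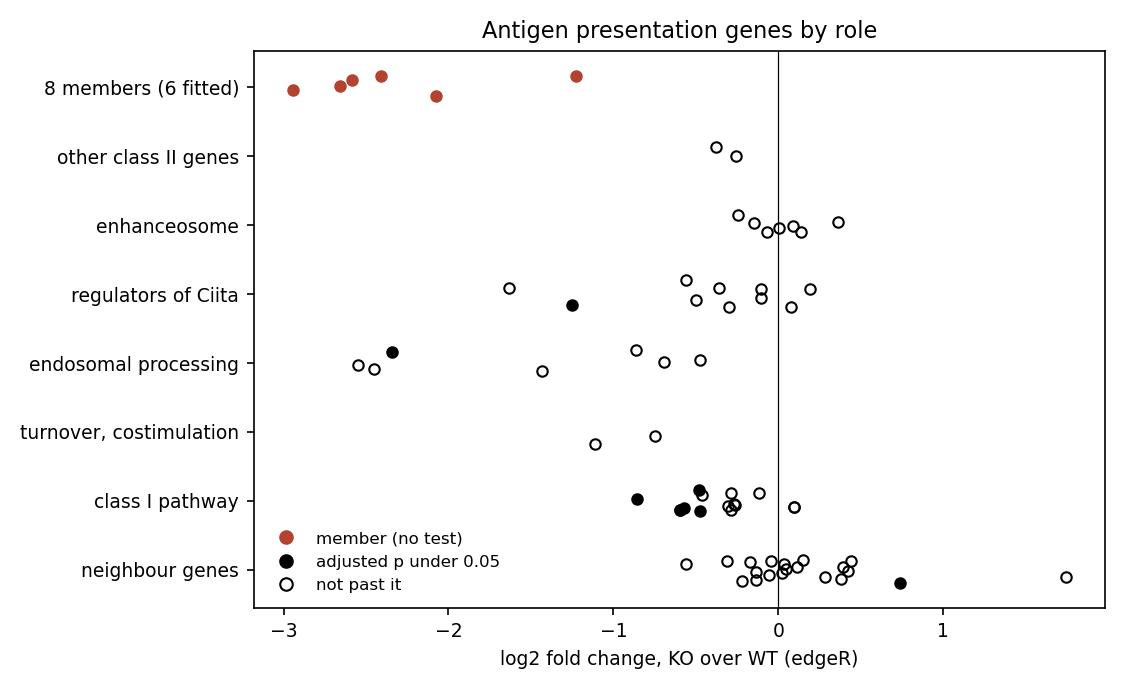
Fitted log2 fold change, KO over WT (horizontal axis), of each tested gene of the antigen presentation lists (rows), with the 8 class II genes (6 fitted) in red and, for the other lists, filled circles for an adjusted p under 0.05. The 6 fitted class II genes lie between -2.95 and -1.23, the 7 docking factors (enhanceosome) lie between -0.24 and 0.36, and the processing genes all lie below 0.

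Cell types that carry class II on their surface were looked for by marker lists. The lists' calls are set beside the background of 4.99% lower and 6.41% higher over all genes tested. The 16 macrophage markers summed to 92.8 to 164 CPM in KO and to 203 to 1229 CPM in WT, and 2 of 14 tested, Lyz2 and Msr1, fell (3 were called by DESeq2 and 1 by limma-voom), the Msr1 call being lost without WT replicate 3 (edgeR, adjusted p = 0.116). None of these markers was at 0 in all libraries. The WT range rested on replicate 3, which had 911 counts of Emr1 (the F4/80 gene), against 119 and 47 counts in WT replicates 1 and 2 and 42, 12 and 81 counts in KO replicates 1 to 3. The 5 monocyte markers summed to 12.9 to 35.0 CPM in KO and to 66.0 to 213 CPM in WT. Ccr2, a chemokine receptor of monocytes, had 21, 50 and 45 counts in KO replicates 1 to 3, against 298, 290 and 409 counts in WT replicates 1 to 3, a log2 fold change of -3.39 (SE 0.40, edgeR adjusted p = 1.09e-05).

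The 12 dendritic cell markers summed to 327 to 399 CPM in KO and to 509 to 669 CPM in WT. Of 7 tested, 3 fell, beside the background of 4.99% lower (edgeR, and 3 were called by DESeq2 and 3 by limma-voom). These 3, Flt3, Cd24a and Irf8, are also expressed in progenitors, and hold most of the sum. The Flt3 call was lost without KO replicate 2, KO replicate 3 or WT replicate 1 (edgeR, highest adjusted p = 0.187). The markers closer to mature dendritic cells were rare: Itgax had 8, 1 and 32 counts in KO and 54, 28 and 24 counts in WT, and Clec9a had 0 counts in every KO library and 0, 31 and 1 in WT replicates 1 to 3. Zbtb46 had 97, 188 and 115 counts in KO, against 37, 48 and 131 counts in WT. Xcr1 and Ccr7, too rare to be tested, had higher mean levels in KO. Xcr1 had 7, 16 and 16 counts in KO, against 2, 0 and 2 in WT, and Ccr7 had 0, 0 and 16, against 0, 0 and 3. Among 10 B cell markers, Blnk was at 0 in all libraries and only Cd79b was tested, which did not pass (edgeR, adjusted p = 0.433). Pax5 had 0 counts in every KO library and 3, 33 and 0 in WT replicates 1 to 3.

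The order of the libraries differed between class II and the macrophage markers. The summed CPM of Cd74, H2-Aa, H2-Ab1 and H2-Eb1 was 11.5, 18.8 and 12.6 in KO replicates 1 to 3, against 102, 86.2 and 38.5 in WT replicates 1 to 3. WT replicate 3, with the highest macrophage sum of the 6 libraries, had the lowest class II sum of the WT group. Per 100 CPM of macrophage markers, class II stood at 7.05, 20.3 and 11.4 CPM in KO, against 27.4, 42.4 and 3.13 CPM in WT, so on that scale the groups overlapped. That overlap rested on WT replicate 3 alone, and so did an overlap per 100 CPM of endothelial markers. On the endothelial scale class II stood at 6.75, 15.1 and 9.32 CPM in KO, against 28.3, 42.8 and 3.87 CPM in WT. The groups overlapped also per 100 CPM of monocyte, erythroid and hepatoblast markers. Per 100 CPM of stem cell markers class II stood at 0.540, 0.939 and 0.638 CPM in KO, against 3.68, 3.58 and 1.65 CPM in WT, and per 100 CPM of dendritic cell markers at 2.89, 5.76 and 3.70 CPM in KO, against 15.3, 16.0 and 7.56 CPM in WT. Per 100 CPM of B cell markers, a sum held mostly by Cd79b, it stood at 47.1, 67.9 and 59.0 CPM in KO, against 381, 226 and 89.4 CPM in WT. On these 3 scales every KO library was below every WT library. The class II genes were picked on this contrast and their sum kept the groups apart before any scaling, so nothing is read from that order. The part of any of these cell types in the class II difference was not tested.

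Markers of other cell types of the fetal liver were looked at in the same way. The erythroid markers summed to 35.7 to 58.4 CPM in KO and to 186 to 417 CPM in WT, with 3 of 5 tested lower (edgeR, and 3 called by DESeq2 and 2 by limma-voom). The hepatoblast markers summed to 26.3 to 63.8 CPM in KO and to 58.2 to 127 CPM in WT, with 2 of 6 lower (edgeR, and 2 called by DESeq2 and 2 by limma-voom). The endothelial markers summed to 124 to 171 CPM in KO and to 201 to 995 CPM in WT, with 1 of 6 lower (edgeR, and 4 called by DESeq2 and 1 by limma-voom). The background was again 4.99% lower, and the hepatoblast sums of the groups overlapped. Of these calls, Alas2 and Trf passed whichever library was left out (edgeR), while Slc4a1 was lost without KO replicate 2, Klf1 without KO replicate 2, KO replicate 3 or WT replicate 1, Ttr without WT replicate 1, and Tek without KO replicate 2 or WT replicate 3. Of the 10 stem cell markers tested, 4 fell and 0 rose beside that background (edgeR, and 4 called by DESeq2 and 4 by limma-voom). A fitted value below 0 was found in 6 of the 10, and in 52.0% of all genes tested. Gata2, Hoxa9, Procr and Mecom had log2 fold changes above 0, of 0.20, 0.27, 0.08 and 0.03, and none passed the threshold (edgeR). Among the genes that fell were Kit, Hlf and Cd34, by 0.38 to 0.55 on the log2 scale (edgeR). Each of these 3 calls was lost without KO replicate 2, and for Kit and Hlf also without KO replicate 3 or WT replicate 1, and for Kit without WT replicate 3 (edgeR, highest adjusted p = 0.116). The adult globin genes Hba-a1 and Hbb-b1 were at 0 in the count table in all libraries, but Hbb-b1 had 48.5, 0.00094 and 234 in KO replicates 1 to 3, against 373, 20.2 and 0.0012 in WT replicates 1 to 3, in the authors' RPKM, so the tables differ for this gene and no level is drawn from it.

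**Figure D4:**
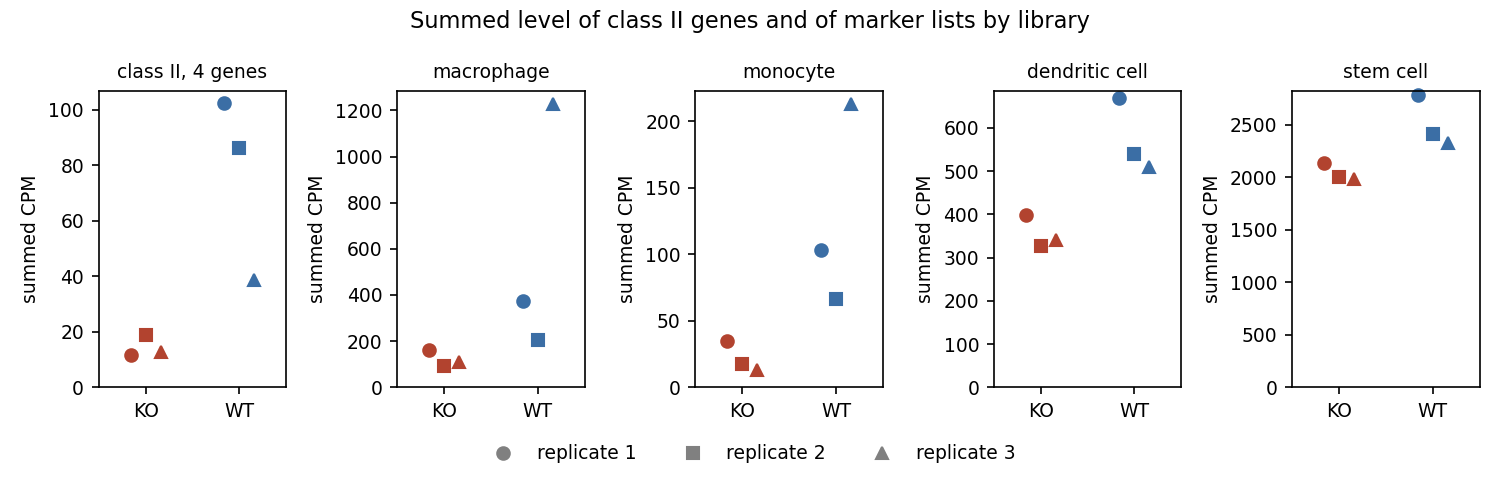
Summed level in CPM (vertical axis from 0, a separate scale in each panel) of Cd74, H2-Aa, H2-Ab1 and H2-Eb1 and of the macrophage, monocyte, dendritic cell and stem cell marker lists in the 3 KO libraries (red) and the 3 WT libraries (blue), with the marker shape giving the replicate number. WT replicate 3 (blue triangle) is the highest library for macrophage markers at 1229 CPM and the lowest WT library for class II at 38.5 CPM.

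The genes whose pattern was closest to class II were found over the 6 libraries, by the Pearson correlation of log2 CPM with the mean log2 CPM of Cd74, H2-Aa, H2-Ab1 and H2-Eb1. That mean was 1.02, 2.09 and 1.15 in KO replicates 1 to 3, against 4.47, 4.10 and 3.18 in WT replicates 1 to 3, so the measure mainly follows the split of the groups, and it is given as a description with no p. The 10 closest genes were Rnf128, Tal1, Ubl7, Ctdsp2, Cox16, Prps2, Ada, Tspan13, 2610035D17Rik and Eif1b, with correlations of 0.983 to 0.991. Rnf128, a membrane ubiquitin ligase gene, had 0, 3 and 0 counts in KO replicates 1 to 3, against 26, 19 and 16 counts in WT replicates 1 to 3. Tal1, a transcription factor of stem cells and the erythroid line, stood at 108 ± 3.23 CPM in KO and 127 ± 7.76 CPM in WT (SD, n = 3 each). None of the 10 is a gene of the class II pathway lists or the marker lists.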

How the data were processed

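Total RNA of 3 KO and 3 WT libraries was made into stranded libraries from small amounts of RNA and sequenced on an Illumina instrument, per the labels' protocols. The submitters' processing notes name TopHat, Cufflinks and mm9. No source used here states versions, the counter, the annotation or the strand setting. The authors deposited raw read counts per gene symbol and, in a second table, RPKM values, which were used as deposited. RPKM values do not follow from the counts by a single length per gene.

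Counts were tested with edgeR 4.0.16 in R 4.3.3 (filterByExpr, TMM, robust quasi-likelihood, a model of group alone), with Benjamini-Hochberg adjustment across 12204 genes and calls at 0.05. SEs were derived from the F statistics (size of the log2 fold change over root F). Alternatives used DESeq2 1.42.0, limma 3.58.1 (voom, or log2 of RPKM plus 1 or 0.1), RLE factors, no filter, a replicate block and each library left out. Replicate pairs within a group differed by a chi-square of 21.7 to 43.1 per degree of freedom, so each library counted as 1 replicate. Replicate numbers are not stated to pair libraries.

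The members and lists were chosen with earlier results of these data known. Genes named from the 7 lists were those called with the smallest p, up to 4 a list, filled up by the highest mean CPM, and the 10 closest in pattern; exceptions are stated, and marker genes were named after their values were seen. Older symbols of the table were matched through RefSeq synonyms (Emr1, H2-Ke2, H2-Ke6). Promoter windows are RefSeq's, build GRCm38.p6, matched by symbol. Those coordinates are not of the build of the counts. Some genes of the lists entered the fits and sums but are not reported here by name.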

Additional observations from a re-analysis of the deposited data

How the results depend on the processing

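In each of the 6 fitted class II genes, picked on this contrast, every KO library lay below every WT library. The sign of their fold change could therefore hardly turn in fits to these same libraries. These genes kept a negative log2 fold change under every alternative run, including the fits that left out 1 library, and nothing is read from that sign. Of 90 such values 84 moved by less than the spread between replicates, and the other 6 belonged to Ciita (-3.32 without KO replicate 2, -0.21 on log2(RPKM + 1) with or without the filter, -1.09 on log2(RPKM + 0.1) and -0.92 as the log2 ratio of mean CPM + 1) and to H2-Eb1 (-4.48 without KO replicate 2). A pseudocount of 1 is above Ciita's RPKM in every library and pulls its value on that scale towards 0 by construction.

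Of the counts of genes past the threshold, that over all genes (1391 by edgeR) was 583 on log2(RPKM + 1), 560 on log2(RPKM + 0.1), 166 on log2(RPKM + 1) with no filter, and 720 to 1224 with 1 library left out (720 when KO replicate 2, and 840 when KO replicate 3, was left out). That count over all genes was higher with DESeq2, at 1790, and with no filter on low counts, at 1778. The count of other class II pathway genes (2) was 6 with no filter on low counts, 1 with limma-voom, 1 on either RPKM scale, 0 on RPKM with no filter, and 1 to 5 with 1 library left out. The class I count (5) was 8 with DESeq2, 1 on either RPKM scale, 0 on RPKM with no filter, and 2 to 6 with 1 library left out. The neighbour count (1) was 0 on RPKM with no filter and 1 whichever library was left out. The cause of these shifts was not tested, except that leaving out a library leaves fewer samples.

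The correlation of deviations from the group means between KO and WT libraries of the same number was 0.022, 0.012 and -0.003 for replicates 1, 2 and 3. These values gave no sign of a pairing by number, but with 3 libraries per group they cannot exclude it. With the replicate block 1341 genes passed, and 3 other class II pathway genes, 5 class I genes and 1 neighbour. Low counts limit Ciita, H2-DMb1 and H2-DMb2.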

Other observations

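H2-K2, a class I gene of the table outside the lists, was singled out after its values were seen. It had 31, 57 and 30 counts in KO replicates 1 to 3, against 0 counts in each WT library, which is at least 31.9-fold higher in KO when WT is set to 3 counts over the group (edgeR, adjusted p = 0.0149). Class I genes share much of their sequence, so how reads were divided between H2-K2 and H2-K1 is uncertain. The labels give C57BL/6 for all 6 libraries, and whether KO and WT carry the same H2 haplotype was not tested. H2-K1 itself had 2935, 3722 and 3324 counts in KO replicates 1 to 3, against 2526, 3644 and 2462 counts in WT replicates 1 to 3 (edgeR, adjusted p = 0.741).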
